A study of Mus musculus with 47 samples.

Results

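The 38 protein-coding Hox genes examined here, taken from the Hoxa, Hoxb, Hoxc and Hoxd clusters by gene symbol or Ensembl identifier, are 38 of the 55416 genes in the tables of counts. Of these, 27 had at least 1 count in at least 1 of 37 brain libraries, and 11 had none. The libraries came from male and female 3xTg mice, a model of Alzheimer's disease that carries mutant human APP and tau and a mutant presenilin 1 in every group, Control included. Mice were placed at 6 months of age, for 9 months, on an amino acid-defined Control diet or on a diet low in isoleucine (IleR), leucine (LeuR) or valine (ValR). Males gave 4 libraries on Control, 3 on IleR, 3 on LeuR and 4 on ValR, and females gave 6, 5, 6 and 6 in that order. A further 10 labelled male libraries (2 Control, 3 IleR, 3 LeuR and 2 ValR, of 24 labelled males) have no counts in the tables of counts and are not analysed here. All 23 labelled female libraries have counts. The labels and the methods differ on the tissue, with brain, whole brain, left hemisphere and, in 1 protocol field, liver all named. Libraries are called by sex, diet and the number in their label, and each number belongs to 1 library.

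Hox genes encode homeodomain transcription factors that give cells along the head-to-tail axis their positional identity. They lie in 4 clusters, and the order of genes within a cluster follows the order of their expression along the body, so that genes of low paralog group number are expressed up to the hindbrain and those of high number only further back. In the brain, Hox expression is a trait of the medulla, the pons and the spinal cord, and the forebrain, the midbrain and most of the cerebellum lack it. In GRCm38 coordinates the Hoxa cluster (10 of the genes) spans chr6:52162417-52260880, Hoxb (10 genes) chr11:96194316-96368256, Hoxc (9 genes) chr15:102921103-103036852 and Hoxd (9 genes) chr2:74668310-74765142.

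The DNA just before the start site is shown for 4 genes that stand for the stretches of the clusters described below: Hoxa2 (the most anterior gene with high counts), Hoxb4, Hoxa5 and Hoxb8 (the most posterior gene with high counts). Each sequence is the 250 bases before the RefSeq start (GRCm38.p6), read 5′ to 3′ on the gene's strand, and capitals mark the letters TGATNNAT on either strand, a pattern bound by Hox proteins together with their PBX partners.
Hoxa2 (ENSMUSG00000014704, chr6:52164832-52165081, minus strand): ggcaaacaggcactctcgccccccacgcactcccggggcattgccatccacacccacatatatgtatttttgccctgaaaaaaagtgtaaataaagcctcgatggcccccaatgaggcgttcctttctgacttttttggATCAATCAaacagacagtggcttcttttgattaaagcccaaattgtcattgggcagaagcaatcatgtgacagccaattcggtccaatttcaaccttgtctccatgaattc
Hoxb4 (ENSMUSG00000038692, chr11:96318017-96318266, plus strand): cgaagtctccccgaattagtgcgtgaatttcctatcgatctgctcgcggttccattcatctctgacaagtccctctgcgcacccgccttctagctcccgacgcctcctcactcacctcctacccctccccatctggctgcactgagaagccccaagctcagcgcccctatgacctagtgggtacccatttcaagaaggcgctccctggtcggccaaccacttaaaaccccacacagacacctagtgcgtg
Hoxa5 (ENSMUSG00000038253, chr6:52204588-52204837, minus strand): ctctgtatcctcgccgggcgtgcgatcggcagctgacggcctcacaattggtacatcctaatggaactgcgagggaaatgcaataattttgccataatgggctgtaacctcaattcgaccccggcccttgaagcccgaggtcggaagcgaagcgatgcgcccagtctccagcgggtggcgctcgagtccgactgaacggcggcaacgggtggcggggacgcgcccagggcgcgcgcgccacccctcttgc
Hoxb8 (ENSMUSG00000056648, chr11:96281655-96281904, plus strand): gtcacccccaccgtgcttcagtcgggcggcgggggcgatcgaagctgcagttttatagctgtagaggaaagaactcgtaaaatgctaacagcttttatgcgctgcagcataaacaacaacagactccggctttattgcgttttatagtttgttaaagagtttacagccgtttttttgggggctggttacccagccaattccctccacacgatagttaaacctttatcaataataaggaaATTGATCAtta
The pattern stood 111 bases before the start of Hoxa2 and 11 bases before that of Hoxb8, and the Hoxb4 and Hoxa5 windows did not hold it. RefSeq gave a promoter for 22 of the 38 genes, 24 promoters in all, and 4 of the 24 (16.7%) held TGATNNAT, against 7.68% of 32851 mouse promoters. The letters TGACAG, bound by the MEIS partners of Hox proteins, were in 2 of the 24 (8.33%), against 15.9% of all promoters. GC content had a median of 58.6% in the 24 promoters and of 52.4% in all promoters.

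Several libraries stood apart from others of their diet in markers of brain region. A hindbrain score was computed per library as the mean log2 CPM (counts relative to library size, after TMM scaling) of 15 cerebellum and 17 brainstem and spinal cord markers minus that of 15 forebrain markers, with no Hox gene in it. In males it ran from -6.83 to -3.80 in Control, was -2.90 in LeuR 21 and lay between 0.87 and 4.18 in the other 9 restricted libraries. In females it ran from -6.80 to 0.33 in Control, from -6.25 to -0.31 in IleR, from -6.36 to 3.36 in LeuR and from -5.96 to 0.48 in ValR. Ddn, a gene of forebrain dendrites, stood at 438.1 to 1232.7 CPM in the male Control libraries and at 2.16 to 4.65 CPM in the male ValR libraries. The labelled tissue, brain, was thus met by forebrain markers in male Control libraries, while 13 of the 15 fell in male ValR, beside 12.4% of all genes. Since the score of no restricted male library overlapped those of Control, brain region and diet cannot be told apart in males, and a fit with the score as a covariate takes up most of the diet difference by construction.

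In males, the 4 Control libraries held almost no Hox RNA and the restricted libraries, apart from LeuR 21, held 62 to 5268 Hox counts. Summed over the 38 genes, Control 1, 3, 4 and 5 had 1, 2, 3 and 3 counts. IleR 13, 14 and 17 had 183, 618.8 and 62 counts, which is 11.4, 23.3 and 3.67 CPM. LeuR 19 and 20 had 2567.1 and 481.5 counts (114.9 and 37.0 CPM), and LeuR 21 had 3 counts (0.169 CPM), all of them in Hoxb4. ValR 7, 9, 10 and 12 had 4023.2, 5268, 519.8 and 208 counts (289.6, 355.1, 30.7 and 13.3 CPM). All IleR and ValR libraries lay above all Control libraries, whereas LeuR 21 lay within the Control range.

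**Figure D1:**
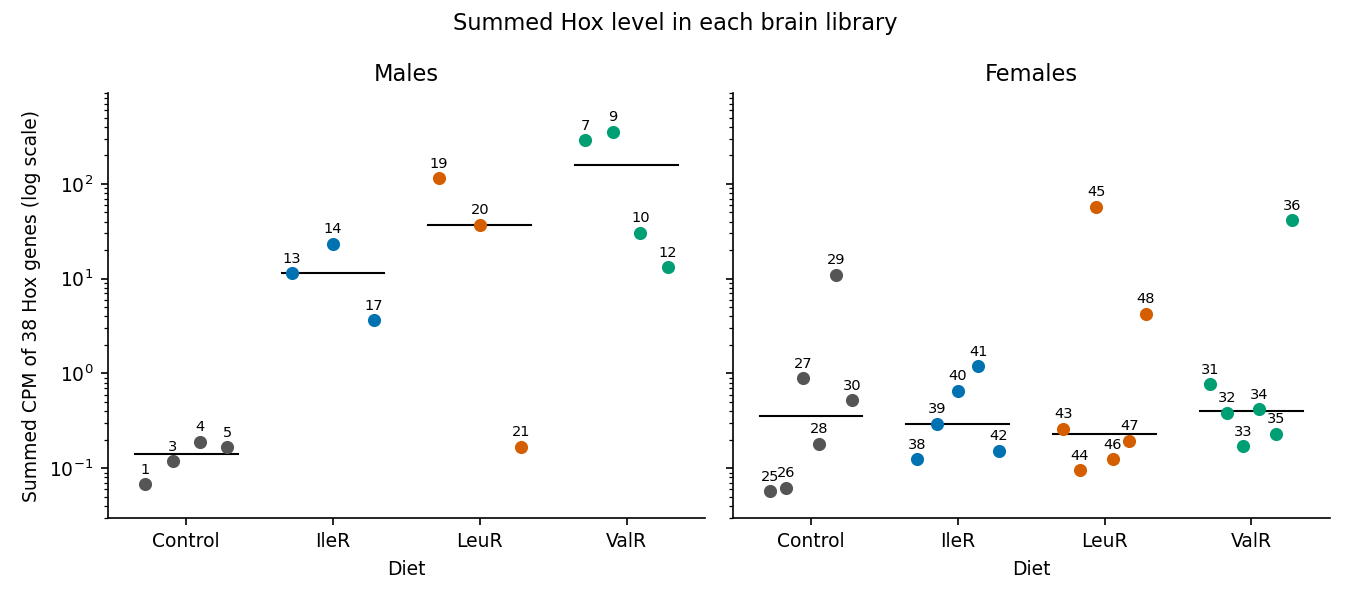
Summed CPM of the 38 Hox genes on a log axis in each male (left) and female (right) library, by diet. Each point is 1 library with its label number and the bar is the group median. Male Control libraries sit between 0.0681 and 0.191 CPM and male ValR libraries between 13.3 and 355.1 CPM, while most female libraries of every diet sit near 1 CPM or below.

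The group means were 0.136 ± 0.0546 CPM (SD, n = 4) in Control, 12.8 ± 9.90 (n = 3) in IleR, 50.7 ± 58.6 (n = 3) in LeuR and 172.2 ± 175.6 (n = 4) in ValR. Because no Control library passed 3 counts, folds are lower bounds against 3 counts per Control library, a mean of 0.185 CPM. The sum was at least 69.1-fold higher in IleR, at least 273.9-fold higher in LeuR and at least 930.1-fold higher in ValR. ValR 7 and ValR 9 held 66.6% of all male Hox counts; without them the ValR mean was 22.0 ± 12.3 CPM (n = 2), at least 118.6-fold higher than Control. Without ValR 9 alone it was 111.2 ± 154.8 CPM (n = 3), at least 600.7-fold higher. The LeuR mean was 76.0 ± 55.1 CPM (n = 2) without LeuR 21 and 18.6 ± 26.1 CPM (n = 2) without LeuR 19, the latter at least 100.5-fold higher than Control. Without IleR 14 the IleR mean was 7.52 ± 5.44 CPM (n = 2), at least 40.6-fold higher. The SD of the restricted groups was of the size of their means, so the order of IleR, LeuR and ValR means was within the spread between libraries. In bulk tissue, more cells of a type and more RNA per cell cannot be told apart.

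Of the 38 genes, 13 were present with 1 count or more throughout 1 of the male diet groups and so passed the filter, and these were members of paralog groups 1 to 5. With Control at or near 0, such a gene passed through a restricted group where it was present, so that a difference was built into the filter and the counts of calls among the 13 are a description. By edgeR's quasi-likelihood test at an adjusted p of 0.05, 2 of 13 were higher in IleR (Hoxa2 and Hoxb2), beside 6.63% of all genes tested that rose in that comparison. In LeuR 8 of 13 were higher (Hoxa2, Hoxb2, Hoxa3, Hoxb3, Hoxd3, Hoxa4, Hoxb4 and Hoxc4), beside 3.81% of all genes, and in ValR all 13 were higher, beside 11.1% of all genes. None was lower at that threshold, at which 8.68%, 6.33% and 12.4% of all genes fell in IleR, LeuR and ValR. The 3 comparisons share the 4 Control libraries. Every IleR library lay above every Control library for 11 of the 38 genes, beside 14.8% of genes tested, every LeuR library for 1 (Hoxb4), beside 8.21%, and every ValR library for 13, beside 12.7%.

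The calls depended on the test and on single libraries. With limma voom, the tool of the study's methods, 0, 0 and 6 Hox genes were called in IleR, LeuR and ValR, beside 7.38%, 3.91% and 11.0% of all genes that rose, with 3, 2 and 13 at an unadjusted p under 0.05, beside 30.9%, 27.7% and 35.2% of all genes in either direction. With edgeR at an adjusted p of 0.01, 0, 0 and 7 were called, beside 2.28%, 0.293% and 5.24% of all genes that rose. In edgeR fits of each diet with Control alone, 8 of 12, 0 of 1 and 13 of 13 Hox genes tested were called, beside 6.16%, 0.0% and 11.6%. With DESeq2, which gave an adjusted p to 13, 12 and 13 of them, the counts were 10, 12 and 13, beside 9.49%, 8.0% and 13.5%. With the hindbrain score as a covariate in edgeR, no Hox gene was called in any of the 3 diets and none had an unadjusted p under 0.05, while 0.0135%, 0.0631% and 0.0% of all genes rose in IleR, LeuR and ValR, so nearly every call in the table was lost with those of the Hox genes. In IleR no Hox gene was called without Control 1, Control 3 or Control 5 (beside 3.71%, 3.9% and 4.78% of all genes that rose) or without IleR 13, 14 or 17 (4.33%, 3.27% and 2.84%), and 1 was called without Control 4 (8.8%). In LeuR none was called without Control 1, Control 3 or LeuR 19 (0.958%, 0.846% and 0.631% of all genes), 2 were called without Control 5 (1.8%), and 5 without ValR 7 or without LeuR 20 (2.63% and 2.4%). Without LeuR 21, 7 were called in IleR, 13 in LeuR and 16 in ValR, of 17 tested, beside 8.38%, 7.09% and 13.3% of all genes. Without ValR 7 and ValR 9, 4 were called in ValR (Hoxa2, Hoxb2, Hoxb3 and Hoxd3), beside 9.49% of all genes.

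Paralog groups 1 to 3 act in the hindbrain, groups 1 and 2 furthest forward. Hoxb1, which gives the fourth hindbrain segment its identity, had 1 count in all, in male ValR 7. Hoxd1 stood at 0 in all male Control libraries and in LeuR 21. Its levels were 0.248, 0.226 and 0.0592 CPM in IleR 13, 14 and 17, 0.582 and 0.307 CPM in LeuR 19 and 20, and 0.720, 0.472, 0.236 and 0.0637 CPM in ValR 7, 9, 10 and 12, the last from 1 count. The gene was at most 13 counts deep in any of them. It was called in ValR (at least 2.01-fold higher, adjusted p = 0.0241, edgeR).

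Hoxa2, the only Hox gene active in the second hindbrain segment, was at 0 in every male Control library and in LeuR 21. In IleR 13, 14 and 17 it stood at 1.49, 1.47 and 0.652 CPM, in LeuR 19 and 20 at 4.30 and 3.38 CPM, and in ValR 7, 9, 10 and 12 at 5.61, 6.07, 1.71 and 1.27 CPM. The lowest restricted library other than LeuR 21, IleR 17, held 11 counts of it, and no Control library held any. It was at least 6.50-fold higher in IleR (adjusted p = 0.0300, edgeR), at least 13.8-fold higher in LeuR (adjusted p = 0.0206) and at least 19.8-fold higher in ValR (adjusted p = 0.00491).
Hoxb2, its paralog, had 1 count in Control 3 (0.0592 CPM) and none in Control 1, 4 and 5 or in LeuR 21. It stood at 1.43, 1.66 and 0.592 CPM in IleR 13, 14 and 17, at 7.48 and 2.61 CPM in LeuR 19 and 20, and at 8.78, 11.0, 3.01 and 1.27 CPM in ValR 7, 9, 10 and 12. Hoxb2 had the smallest adjusted p of the family in ValR (0.00213, edgeR), with at least 32.5-fold more than Control, and passed in IleR (adjusted p = 0.0351) and LeuR (adjusted p = 0.0155).

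The group 3 genes Hoxa3, Hoxb3 and Hoxd3, which act in the caudal hindbrain and the branchial region, were present in every restricted male library but LeuR 21. Hoxa3 was at 0 in male Control libraries and LeuR 21, at 1.61, 1.96 and 0.237 CPM in IleR 13, 14 and 17, at 8.10 and 3.77 CPM in LeuR 19 and 20, and at 8.78, 14.2, 2.12 and 0.510 CPM in ValR 7, 9, 10 and 12. Hoxb3 had 1 count each in Control 1 and Control 4, stood at 1.55, 3.54 and 0.592 CPM in IleR 13, 14 and 17, at 17.4, 6.38 and 0 CPM in LeuR 19, 20 and 21, and at 23.7, 30.4, 6.25 and 1.21 CPM in ValR 7, 9, 10 and 12. Hoxd3, whose counts are uncertain because it shares 9.26% of its exon bases with Hoxd4 and lies across Gm28230, a gene model given up to 65.8 counts, was at 0 in Control and LeuR 21, at 1.74, 2.67 and 0.355 CPM in IleR 13, 14 and 17, at 16.1 and 3.07 CPM in LeuR 19 and 20, and at 12.7, 19.3, 7.02 and 1.53 CPM in ValR 7, 9, 10 and 12.
Hoxd3 was the only one of the 3 with a higher CPM in LeuR 19 than in ValR 7. In ValR the lower bounds of the fold were 34.5 for Hoxa3, 83.1 for Hoxb3 and 54.7 for Hoxd3 (adjusted p = 0.0118, 0.00324 and 0.00822, edgeR).

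Paralog groups 4 and 5 mark the caudal medulla and the neck level of the spinal cord, and Hoxa5 and Hoxc5 also act in the phrenic motor neurons. Hoxa4 had 1 count in Control 5, stood at 0.993, 1.43 and 0.0592 CPM in IleR 13, 14 and 17, at 6.98, 1.46 and 0 CPM in LeuR 19, 20 and 21, and at 7.41, 11.6, 1.59 and 0.573 CPM in ValR 7, 9, 10 and 12. Hoxb4 was the most widely detected Hox gene, with a count in 31 of the 37 libraries, 3 of the 4 male Control libraries among them (1, 1 and 2 counts). Its levels were 0.0621, 1.62 and 0.118 CPM in IleR 13, 14 and 17, 6.49, 2.46 and 0.169 CPM in LeuR 19, 20 and 21, and 10.1, 14.6, 1.36 and 0.573 CPM in ValR 7, 9, 10 and 12.
In IleR 13 and IleR 17, Hoxb4 was at the Control level of 1 to 2 counts, although those libraries held 24 and 11 counts of Hoxa2.
Hoxc4, the most anterior Hoxc gene, was at 0 in Control and LeuR 21, at 0.559, 1.36 and 0.178 CPM in IleR 13, 14 and 17, at 12.6 and 3.00 CPM in LeuR 19 and 20, and at 19.4, 22.2, 2.95 and 1.21 CPM in ValR 7, 9, 10 and 12. Hoxd4, which shares 13.2% of its exon bases with Hoxd3 and is uncertain for the same reasons, was at 0 in Control, IleR 17 and LeuR 21, at 0.372 and 0.640 CPM in IleR 13 and 14, at 4.66 and 0.999 CPM in LeuR 19 and 20, and at 5.97, 7.15, 1.18 and 0.382 CPM in ValR 7, 9, 10 and 12.
ValR 9 had the highest level of each of the 4 paralogs of group 4. In ValR they were at least 28.6-fold (Hoxa4), 36.1-fold (Hoxb4), 61.9-fold (Hoxc4) and 19.8-fold (Hoxd4) higher than Control (adjusted p = 0.00664, 0.00706, 0.00924 and 0.0154, edgeR).

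Hoxa5 was at 0 in every male Control library and LeuR 21, at 0.435, 2.11 and 0.118 CPM in IleR 13, 14 and 17, at 9.13 and 2.84 CPM in LeuR 19 and 20, and at 30.3, 43.3, 0.885 and 1.40 CPM in ValR 7, 9, 10 and 12. Hoxb5, which lies in the same position of the Hoxb cluster, was at 0 in the same 5 libraries, at 0.435, 2.83 and 0.415 CPM in IleR 13, 14 and 17, at 15.5 and 4.46 CPM in LeuR 19 and 20, and at 45.4, 68.5, 1.59 and 1.98 CPM in ValR 7, 9, 10 and 12. Hoxc5, with 5.37% of its exon bases shared with Hoxc10, was at 0 there too, at 0.310, 1.21 and 0.0592 CPM in IleR 13, 14 and 17, at 3.13 and 1.31 CPM in LeuR 19 and 20, and at 9.64, 12.3, 0.472 and 0.828 CPM in ValR 7, 9, 10 and 12.
The ValR libraries lay further apart for Hoxb5 than for Hoxd3. Hoxb5 in ValR 9 was at 68.5 CPM and in ValR 10 at 1.59 CPM, whereas Hoxd3 in the same libraries was at 19.3 and 7.02 CPM. All 3 group 5 genes were called in ValR (adjusted p = 0.0131 for Hoxa5, 0.0119 for Hoxb5 and 0.0124 for Hoxc5, edgeR) and missed the threshold in LeuR, with adjusted p of 0.0820, 0.0703 and 0.0815.

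**Figure D2:**
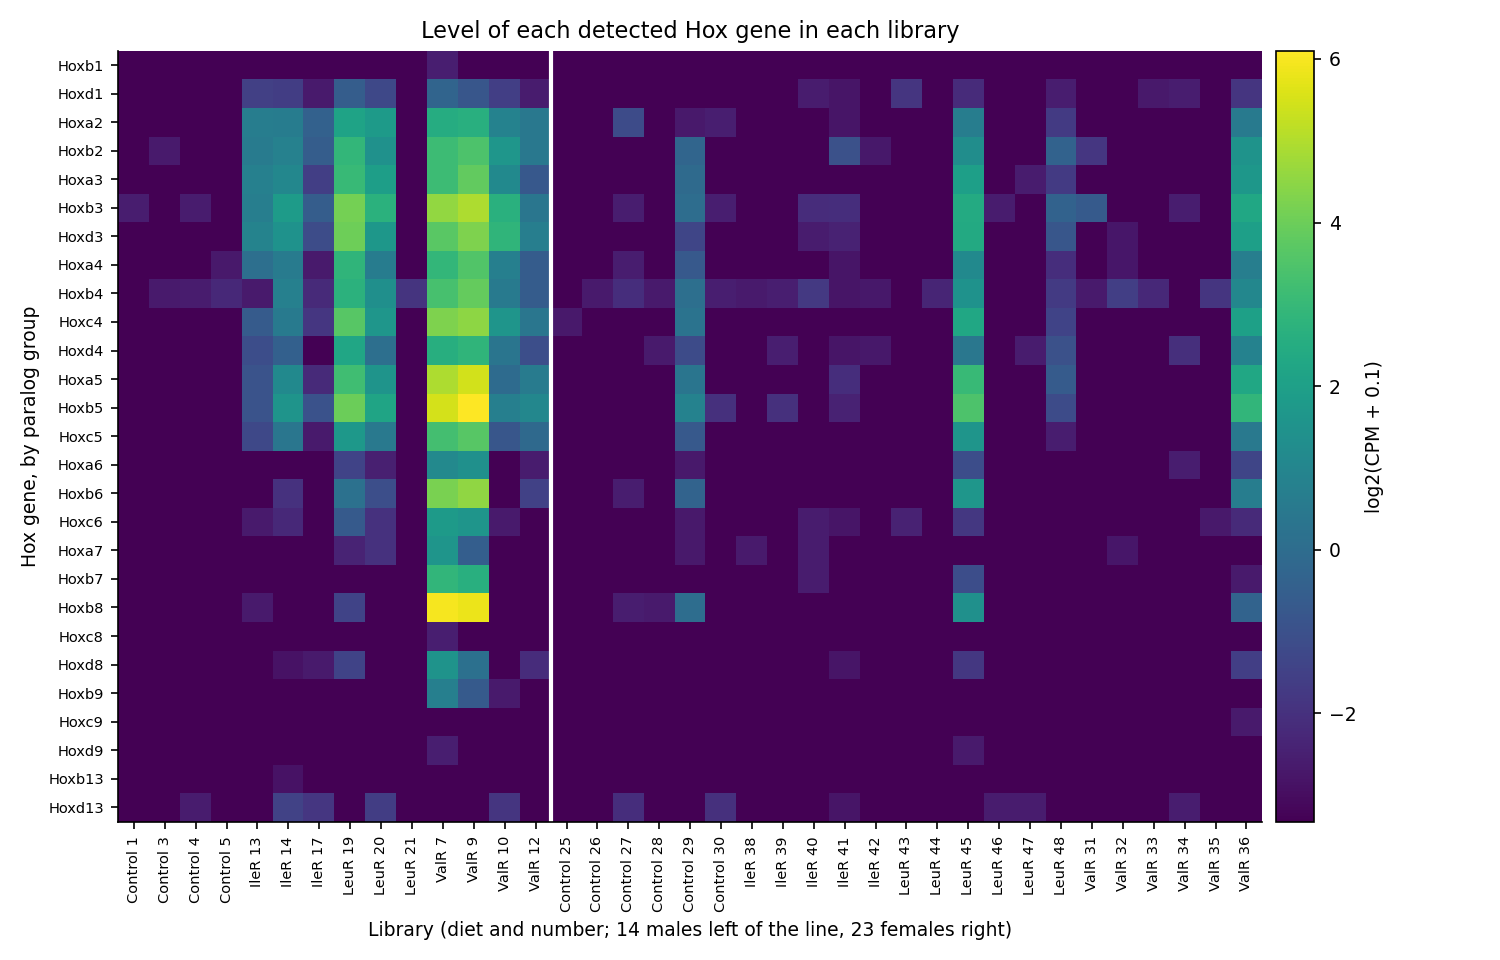
Level of each Hox gene with at least 1 count, as log2(CPM + 0.1), in 14 male (left of the white line) and 23 female (right) libraries. Rows run from paralog group 1 at the top to 13 at the bottom. The signal fills groups 2 to 5 in 9 male libraries and reaches group 8 (Hoxb8) as a bright row only in ValR 7 and ValR 9, with weaker cells in female Control 29, LeuR 45 and ValR 36.

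Paralog groups 6 to 9 specify the lower neck and the trunk, and 97.1% of their male counts (2797 of 2882) came from ValR 7 and ValR 9. Hoxb8, a gene of the spinal cord and of microglial precursors, had 869 and 849 counts in these libraries (62.5 and 57.2 CPM), 1 count in IleR 13, 6 in LeuR 19 and none in the other 10 male libraries. ValR 10 and ValR 12 held none, so the ValR mean of 29.9 ± 34.6 CPM (SD, n = 4) described no single library. Hoxb7 had 102 and 90 counts in ValR 7 and 9 (7.34 and 6.07 CPM) and none in any other male library. Hoxb6 had 253 and 342 counts there (18.2 and 23.1 CPM), 23 in LeuR 19, 5 in LeuR 20, 4 each in IleR 14 and ValR 12, and none in the other male libraries.
The Hoxa and Hoxc genes of these groups followed at lower counts. Hoxa6 had 29 and 38 counts in ValR 7 and 9 (2.09 and 2.56 CPM), 6 in LeuR 19, 1 in LeuR 20 and 1 in ValR 12. Hoxc6 had 47 and 43 counts there (3.38 and 2.90 CPM), 12 in LeuR 19 and at most 3 in any other male library. Hoxa7 had 41 and 9 counts and Hoxd8 38 and 15 counts in ValR 7 and 9, both higher in ValR 7, and the highest count elsewhere was 2 for Hoxa7 and 6 for Hoxd8 in males. Hoxb9 had 22 and 8 counts in them and 1 in ValR 10. Hoxc8 and Hoxd9 had 1 count each in males, both in ValR 7, and Hoxa9 and Hoxc9 had no count in males (Hoxc9 had 1 count in female ValR 36).
None of the genes of groups 6 to 9 passed the filter in males, so none entered the test.

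Groups 10 to 12, which pattern the lumbar and more caudal spinal cord and the limbs, had no count in any of the 37 libraries. In the deepest library, male IleR 14, a count of 0 allows a level of up to 0.113 CPM, from counting error alone. Group 13 acts in the tail end of the axis and the digits, and Hoxa13 and Hoxc13 were at 0 throughout, with 1 count of Hoxb13 in male IleR 14. Hoxd13 was the exception, with 1 to 7 counts in 5 male libraries (7 in IleR 14, 3 each in IleR 17, LeuR 20 and ValR 10, and 1 in Control 4) and at most 2 counts in 6 female libraries. ValR 7 and ValR 9, with the most Hox counts, held none of it. Evx2, the homeobox gene 8753 bases beyond Hoxd13, had 18 to 116 counts in these 5 male libraries and 19 to 80 counts in 5 male libraries without a Hoxd13 count (IleR 13, LeuR 19, ValR 7, ValR 9 and ValR 12).

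The composition of the Hox counts differed between libraries of 1 diet. Groups 1 to 3 made up 71.0% of the Hox counts of IleR 13 (95% Wilson interval 64.1 to 77.1) and 49.5% (45.5 to 53.4) of those of IleR 14. In ValR they made up 66.3% (62.2 to 70.3) in ValR 10, 44.2% (37.6 to 51.0) in ValR 12, 22.9% (21.8 to 24.1) in ValR 9 and 20.8% (19.6 to 22.1) in ValR 7. Groups 6 to 9 were 34.9% (33.4 to 36.4) in ValR 7 and 26.5% (25.3 to 27.7) in ValR 9 but 0.385% (0.106 to 1.39) in ValR 10 and 2.14% (1.65 to 2.78) in LeuR 19. LeuR 19, with 2567.1 Hox counts, thus stood near LeuR 20 in composition (46.9% and 52.7% from groups 1 to 3) and not near ValR 7. These intervals cover counting error only, since reads are not independent molecules. The Hoxb cluster held 61.4% and 59.5% of the counts of ValR 7 and 9, and 31.1% to 46.8% of those of the other restricted male libraries except LeuR 21.

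**Figure D3:**
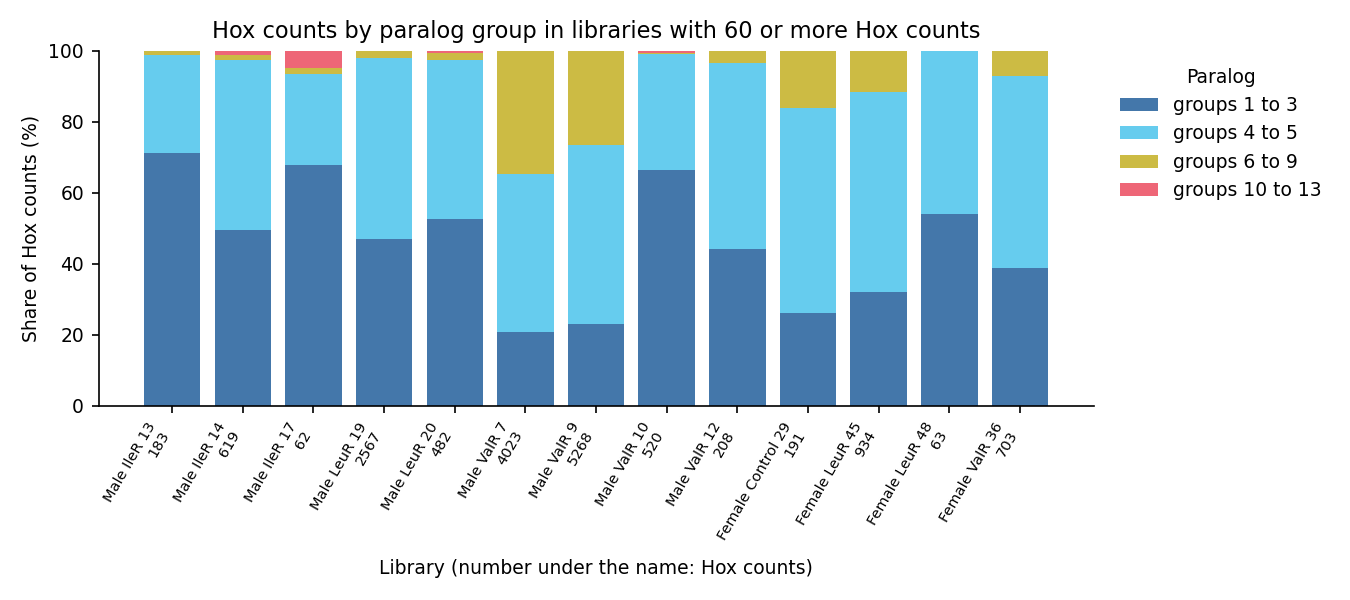
Share of all Hox counts (%) from paralog groups 1 to 3, 4 to 5, 6 to 9 and 10 to 13 in the 13 libraries with at least 60 Hox counts, the number of Hox counts standing under each name. Groups 6 to 9 take 34.9% and 26.5% in male ValR 7 and ValR 9, 16.2% in female Control 29, and less in the other libraries.

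Per kb of exon, the order of the genes within a library changed with the same split. In LeuR 20 the highest level was that of Hoxa2 (1.90 CPM per kb), with Hoxb5 at 1.60 and Hoxa5 at 1.51, a narrow order from 44, 58 and 37 counts. In LeuR 19 Hoxb5 (5.58 CPM per kb) stood above Hoxc4 (4.90), Hoxa5 (4.87) and Hoxa4 (4.38). In ValR 7 the order was Hoxb8 (23.7 CPM per kb), Hoxb5 (16.3), Hoxa5 (16.1) and Hoxb6 (9.27), and in ValR 9 it was Hoxb5 (24.6), Hoxa5 (23.1), Hoxb8 (21.7) and Hoxb6 (11.7). The group 5 genes of the Hoxa and Hoxb clusters were therefore at or near the top in each of these libraries.

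**Figure D4:**
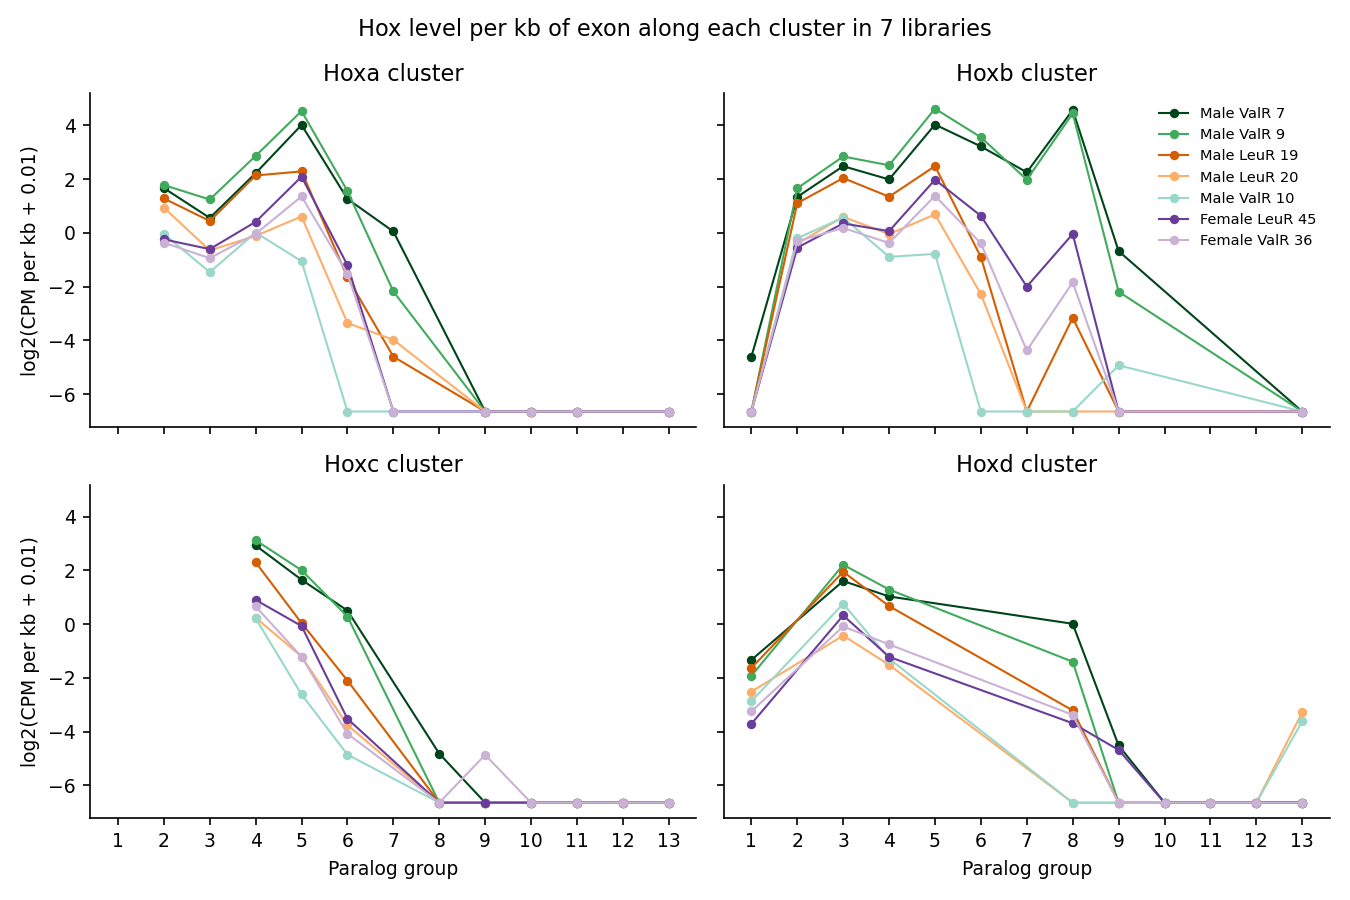
Level as log2(CPM per kb of exon + 0.01) against paralog group in each cluster, for 5 male and 2 female libraries. The lowest line in each panel is a level of 0. In the Hoxb panel ValR 7 and ValR 9 stand higher at group 8 than at group 6, whereas LeuR 19 stays below its level at group 6. In the Hoxc panel the level falls from group 4 to group 6 in all 7 libraries.

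The restricted diets were also compared with each other in males. No Hox gene was called between ValR and LeuR, where 2.75% of genes tested were called in either direction, and none of the 13 had an unadjusted p under 0.05. None was called between ValR and IleR, where the share of all genes called was 0.0%, although 8 of the 13 had an unadjusted p under 0.05, beside 2.83% of all genes (the adjusted p was 1 for each, edgeR). Hoxb5 had the largest fitted difference, at 1.22 ± 1.39 CPM in IleR (SD, n = 3) and 29.4 ± 33.2 CPM in ValR (n = 4). Between IleR and LeuR none was called, the share of all genes called being 0.0%, and none had an unadjusted p under 0.05. DESeq2 and limma voom called no Hox gene in any of the 3 comparisons. These p-values do not show that the diets acted alike, given libraries that ranged over more than the difference of their means.

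Females of every diet mostly lacked Hox RNA. Of the 2005.16 Hox counts in females, 94.3% were in 4 of the 23 libraries: LeuR 45 with 934.2 counts (57.7 CPM), ValR 36 with 703 (41.5 CPM), Control 29 with 191 (11.0 CPM) and LeuR 48 with 63 (4.29 CPM). The other 19 held 1 to 27 counts. The group means were 2.12 ± 4.36 CPM (SD, n = 6) in Control, 0.486 ± 0.452 (n = 5) in IleR, 10.4 ± 23.2 (n = 6) in LeuR and 7.25 ± 16.8 (n = 6) in ValR, and the groups overlapped. Without Control 29 the Control mean was 0.343 ± 0.359 CPM (n = 5), without LeuR 45 the LeuR mean was 0.994 ± 1.84 (n = 5), and without ValR 36 the ValR mean was 0.397 ± 0.235 (n = 5). Without IleR 41, the highest of its diet at 1.20 CPM, the IleR mean was 0.308 CPM.

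Hoxb5 took the most counts in the 3 richest female libraries, with 177 counts in LeuR 45, 122 in ValR 36 and 30 in Control 29, and 5 in LeuR 48. Hoxa5 had 129, 81, 20 and 8 counts in the same order. Per kb of exon, Hoxa5 stood at 4.25 and Hoxb5 at 3.93 CPM in LeuR 45, and at 2.55 and 2.59 CPM in ValR 36, so neither was clearly above the other. Hoxb8 had 41 counts in LeuR 45, 12 in ValR 36, 16 in Control 29 and 0 in LeuR 48. Groups 6 to 9 took 16.2% of the Hox counts of Control 29 (95% Wilson interval 11.7 to 22.1) and 11.7% of those of LeuR 45 (9.77 to 13.9), against 2.14% in male LeuR 19, which had more Hox counts than either. In LeuR 48 all 63 counts came from groups 1 to 5.

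Only Hoxb4 passed the filter in females. It was not called in IleR, LeuR or ValR (adjusted p = 1.0, 0.968 and 1.0, edgeR), and none of the 3 had an unadjusted p under 0.05. It was not called by limma voom in any diet either, and DESeq2 gave it no adjusted p. The share of all genes called in each of these female comparisons was 0.0%. The difference between the sexes was tested itself, in 1 model of the 37 libraries with 13 Hox genes in it. No Hox gene was called for IleR, LeuR or ValR, where 0.0979%, 0.00445% and 4.25% of all genes were called in either direction, and 7, 2 and 11 Hox genes had an unadjusted p under 0.05, beside 19.1%, 13.0% and 26.0% of all genes. These 13 genes entered the model mostly through restricted male groups where they were high, so a higher level in males was built into the filter here too. The smallest adjusted p was 0.0862, for Hoxb4 in ValR (edgeR). DESeq2 called 2, 2 and 3 of the 12, 5 and 12 Hox genes that it gave an adjusted p (Hoxa5 and Hoxb5 for each diet, and Hoxb4 for ValR), beside 0.872%, 0.499% and 4.48% of all genes called as more raised in males. With limma voom none was called, with 1, 0 and 12 at an unadjusted p under 0.05, beside 19.1%, 12.8% and 25.5% of all genes. The count for ValR depended on which female libraries were kept. Without female ValR 36, 11 Hox genes (all tested but Hoxd1 and Hoxd3) were called as more raised in males for ValR, beside 4.3% of all genes. That fit kept female Control 29, which had the most Hox counts of its diet. Without female LeuR 45, 1 was called (Hoxb4), beside 2.16%. Without female ValR 36, LeuR 45 and Control 29 together, 1 was called (Hoxa2), beside 4.16%.

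Hox proteins bind DNA beside cofactors, and in the embryo outside signals switch Hox genes on. The RNA of lists of such genes was examined in males, where 6.63%, 3.81% and 11.1% of all genes tested rose and 8.68%, 6.33% and 12.4% fell in IleR, LeuR and ValR. Of 11 TALE homeodomain cofactors (the Pbx, Meis, Pknox and Tgif genes), 2 rose and 4 fell in male ValR, with a median log2 change of -0.11 beside 0.03 over all genes tested. Meis1 rose from 7.26 ± 2.55 to 48.2 ± 6.62 CPM (SD, n = 4 each, adjusted p = 0.000242, edgeR) and Tgif2 from 1.37 ± 0.295 to 2.57 ± 0.714 CPM. Pknox2 fell from 85.3 ± 19.4 to 27.8 ± 2.98 CPM and Meis2 from 116.7 ± 49.1 to 60.2 ± 19.2 CPM. In IleR 2 rose and 2 fell, and in LeuR 1 rose and 2 fell.

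Of 18 genes of the retinoic acid pathway, which makes and senses the signal that activates the anterior Hox genes in the embryo, 17 were tested, and 4 rose and 1 fell in male ValR (median log2 change 0.20), beside 11.1% and 12.4% of all genes. Aldh1a1, a retinaldehyde dehydrogenase, rose from 45.7 ± 23.2 to 182.1 ± 13.3 CPM, Cyp26b1, which degrades retinoic acid, from 6.71 ± 5.44 to 22.3 ± 8.04 CPM, and Aldh1a3, another dehydrogenase, from 0.406 ± 0.149 to 1.33 ± 0.440 CPM. The receptor gene Rxrg fell from 14.9 ± 18.3 to 2.23 ± 0.903 CPM. In IleR 3 rose and in LeuR 2 rose, beside 6.63% and 3.81% of all genes, with none that fell. Aldh1a2, the main retinaldehyde dehydrogenase of the embryo, stood at 12.0 ± 11.5 CPM in Control and 8.80 ± 2.40 CPM in ValR (adjusted p = 0.573), and Cyp26a1, another degrading enzyme, had at most 2 counts in either group.

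Polycomb proteins keep Hox genes silent and trithorax proteins keep them active. Of 23 such genes 8 rose and 1 fell in male ValR (median log2 change 0.14), beside 11.1% and 12.4% of all genes. In IleR 1 rose, a smaller share than the 6.63% of all genes, and none was called in LeuR. Cbx7, a Polycomb reader, rose from 75.8 ± 5.76 to 116.2 ± 14.5 CPM and Ezh2, the methyltransferase, from 6.25 ± 0.341 to 9.49 ± 1.55 CPM. Of 13 factors of hindbrain segmentation, 9 were tested, and Gbx2 and Gdf11 rose and Egr2 and Tshz3 fell in ValR, beside 11.1% and 12.4% of all genes. In IleR none rose and 2 fell (6.63% and 8.68% of all genes), and in LeuR 2 rose and 2 fell (3.81% and 6.33%). Egr2, which drives Hoxa2 and Hoxb2 in the embryonic hindbrain and is an activity-dependent gene in the adult cortex, fell from 5.48 ± 4.15 to 0.501 ± 0.316 CPM in the comparison where Hoxa2 rose. The caudal genes Cdx2 and Cdx4, upstream of the trunk Hox genes in the embryo, had no count in any library. In females no gene of these 4 lists was called.

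Within the clusters, 25 noncoding genes are annotated, of which 14 had no count and 3 reached 20 counts in a male library. Hoxb3os, an antisense RNA that overlaps Hoxb3 and Hoxb2, was at 0 in Control and LeuR 21 and had 16, 23 and 14 counts in IleR 13, 14 and 17, 143 and 35 in LeuR 19 and 20, and 66, 49, 26 and 14 in ValR 7, 9, 10 and 12. Its level was highest in LeuR 19, where Hoxb3 itself was below ValR 7 and 9. Hoxaas2, an antisense RNA between Hoxa2 and Hoxa3 that overlaps the latter, was at 0 in the same 5 libraries and had 24, 41 and 8 counts in IleR 13, 14 and 17, 99 and 35 in LeuR 19 and 20, and 58, 67, 33 and 13 in ValR. Of the 25, 4 were tested, and 2, 2 and 3 rose in IleR, LeuR and ValR, beside 6.63%, 3.81% and 11.1% of all genes. Hoxb3os and Hoxaas2 were called in each diet. Both were at 0 in Control and passed the filter through restricted groups, so a difference was built into the filter. Haglr, which starts beside Hoxd1 and runs the other way, was called in ValR (adjusted p = 0.0371, edgeR). It had 19, 21, 8 and 2 counts in ValR 7, 9, 10 and 12 and 5 in Control 4. The counting is not stated to use strand, so an antisense RNA and the Hox gene it overlaps cannot be told apart.

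Outside the clusters, the nearest 3 protein-coding genes on each side (24 in all) were examined. In male ValR 3 rose and 3 fell, beside 11.1% and 12.4% of all genes. In IleR 3 rose and 1 fell, beside 6.63% and 8.68%, and in LeuR none rose and 3 fell, beside 3.81% and 6.33%. Evx1, the homeobox gene next to Hoxa13 and a factor of spinal and hindbrain interneurons, rose from 0.125 ± 0.215 to 1.88 ± 1.015 CPM in ValR (adjusted p = 0.0189, edgeR) and to 2.87 ± 0.591 CPM in IleR. Evx2 stood at 0.286 ± 0.573 CPM in Control and 4.03 ± 0.619 CPM in IleR (adjusted p = 0.0459), and at 1.65 ± 0.572 CPM in ValR, which missed the threshold (adjusted p = 0.137). Both Evx genes were thus higher on average in IleR than in ValR. Hibadh, the next gene, whose enzyme acts in valine breakdown, rose from 46.4 ± 4.26 CPM to 63.3 ± 2.85 CPM in IleR (adjusted p = 0.00813, edgeR) and to 62.5 ± 2.08 CPM in ValR (adjusted p = 0.00420), and stood at 57.3 ± 7.56 CPM in LeuR (adjusted p = 0.0647).

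Markers of brain regions also differed between male Control and restricted libraries, and in males the part of brain region and that of diet cannot be told apart. Of 17 brainstem and spinal cord markers, 16, 15 and 13 rose in male IleR, LeuR and ValR (6.63%, 3.81% and 11.1% of all genes rose), and their summed CPM ran from 6.75 to 42.5 in Control and from 166.2 to 635.9 in ValR. Lbx1 and Tlx3, transcription factors of the dorsal hindbrain, were at 0 in every male Control library and in LeuR 21, the same 5 libraries that lacked Hoxa2. Of 15 cerebellum markers 13, 10 and 14 rose, beside the same shares of all genes, and their summed CPM ran from 454.0 to 1286.3 in Control and from 2723.8 to 9356.1 in ValR. The Control sum was mostly Itpr1 (mean 702.9 CPM), while Gabra6, Cbln3, Fat2 and Pcp2 each averaged 0.504 CPM or less there. Of 15 forebrain markers 12, 5 and 13 fell (8.68%, 6.33% and 12.4% of all genes fell), and their summed CPM ran from 883.1 to 2474.1 in Control and from 141.7 to 189.7 in ValR. The ValR sum was mostly Neurod2 (mean 80.1 CPM) and Wfs1 (mean 55.4 CPM).

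Gabra6, a marker of cerebellar granule cells, was at 0.0637 CPM or less in the 4 male Control libraries and at 0 in LeuR 21, the libraries with the fewest Hox counts, and between 31.5 and 434.7 CPM in the other male libraries. In females it stood at 381.1 CPM in female Control 30 and 372.3 CPM in female LeuR 45, while the 38 Hox genes together had 7 counts in the former and 934.2 in the latter. Among male ValR libraries Gabra6 was highest in ValR 10 (434.7 CPM) and lowest in ValR 9 (117.0 CPM), which had the most Hox counts. Slc6a5, the glycine transporter of brainstem and spinal inhibitory neurons, was at 391.9, 257.9, 234.9 and 83.3 CPM in ValR 9, 7, 10 and 12, the same order as the summed Hox level. It was highest in LeuR 19 (441.5 CPM), which had fewer Hox counts than ValR 7 and 9.

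**Figure D5:**
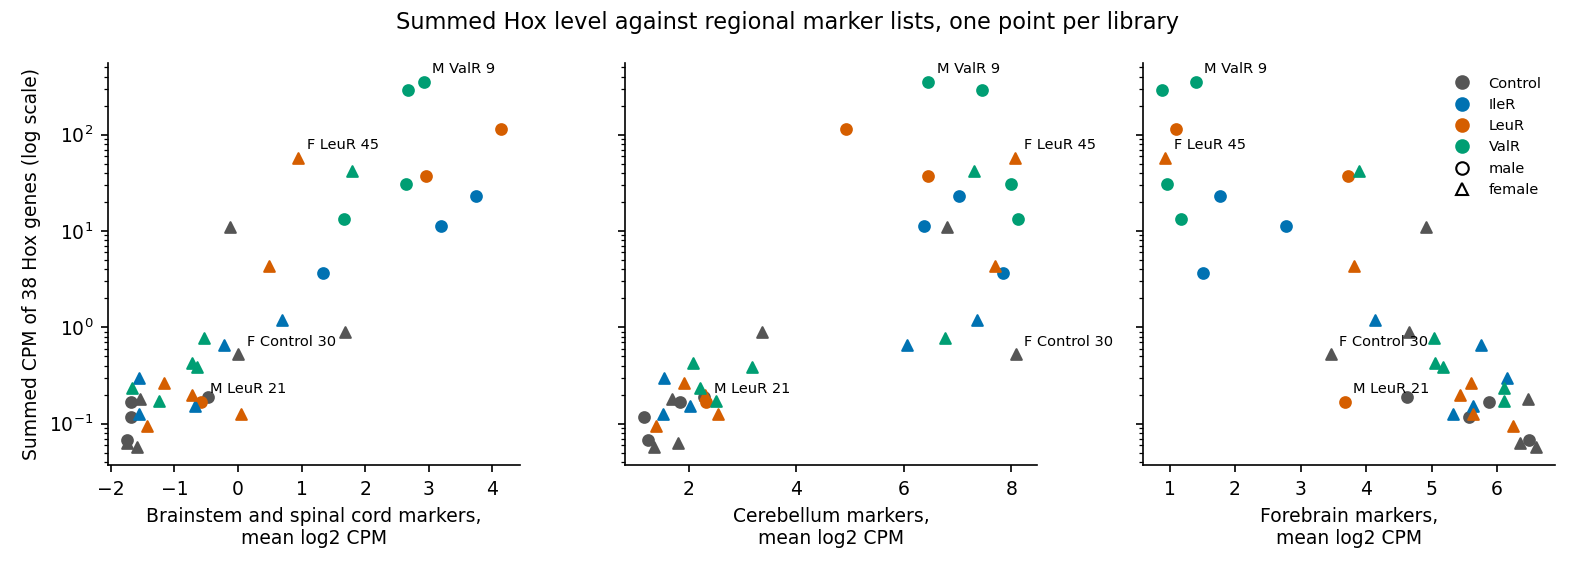
Summed CPM of the 38 Hox genes (log axis) against the mean log2 CPM of brainstem and spinal cord, cerebellum and forebrain markers, with 1 point per library (circles male, triangles female, colour by diet). Of the 4 libraries named in it, male LeuR 21 has 3 Hox counts in a restricted male, and female Control 30 has 7 with cerebellum markers about as high as in female LeuR 45.

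Other lists gave smaller or single-library values. Of 8 markers of sensory and spinal ganglia 7 were tested and 4 rose in male ValR, 3 in IleR and 2 in LeuR, beside 11.1%, 6.63% and 3.81% of all genes. Prph was among them in ValR (1.68 ± 1.45 to 14.1 ± 6.61 CPM), and Scn10a, a sensory neuron channel, stood at 2.90 CPM in ValR 9 and 0.0 CPM in ValR 7. Of 6 skeletal muscle markers 5 were tested, and 3 fell in ValR, 2 in IleR and 2 in LeuR, beside 12.4%, 8.68% and 6.33% of all genes, and none rose. Of 7 bone marrow and blood markers 6 were tested, and 3 rose in LeuR, beside 3.81% of all genes, with S100a8 at 91.2 CPM in LeuR 19, and Hoxa9, a gene of blood progenitors, had no count there. Of 7 fibroblast and meninges markers 1 fell in ValR, beside 12.4% of all genes, and none of 5 choroid plexus markers was called in any diet.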

How the data were processed

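RNA-seq of brain was analysed in 37 libraries. The authors deposited expected counts per gene (Ensembl IDs, GRCm38), neither normalized nor pooled, which were rounded to whole numbers for the tests; the aligner is not given in the sources used here. The labels name both a polyA-selected and a total RNA kit. The study's methods used R 3.4.3 with edgeR and limma, and removed outlying libraries after a principal component analysis. Total counts per library ran from 12682687 to 25722333 in males and from 10672599 to 21370973 in females.

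From these counts, CPM was computed with TMM scaling, and log2 changes were tested with edgeR 4.0.16 (quasi-likelihood, R 4.3.3), with limma 3.58.1 voom and DESeq2 1.42.0 as alternatives. Each sex was fitted over its 4 diets, on genes found with 1 count or more throughout 1 or more of the diets. The difference between the sexes was an interaction term in a fit of all libraries. P-values were adjusted by Benjamini-Hochberg over all genes tested, and calls are at an adjusted p of 0.05. Nothing states how the libraries map to litters or runs, so p-values measure the spread between these libraries. Floors are 3 counts per library, and intervals are 95% Wilson intervals. Scripts were tested on simulated data.

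The Hox genes and the marker lists were chosen with earlier results of these data known. All Hox genes were described, with values in every male library for those with at least 20 counts in a male library and a mean of at least 1 CPM in a male diet. Other genes named were those of a list past the threshold in male ValR with the 3 largest rises and falls, the list's highest markers, noncoding cluster genes with at least 20 counts and the nearest 3 genes on each side. Scn10a, S100a8, Cdx2 and Cdx4 were chosen after their values were seen. 1 further annotated Hox gene and some genes that the rule would name are not reported here. Promoters came from RefSeq. Alternatives were another scaling, filter, tool or threshold, fits of 2 groups alone, the hindbrain score as a covariate and leaving out each library. 3 joint leave-outs (LeuR 21, ValR 7 with ValR 9, and female ValR 36 with LeuR 45 and Control 29) were chosen after seeing the data.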

Additional observations from a re-analysis of the deposited data

Results flagged for a closer look

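Among the female libraries, 3 stood far from the others of their diet in the summed CPM of the 38 Hox genes. Control 29 stood at 11.0 CPM with the next library at 0.887, LeuR 45 at 57.7 CPM with the next at 4.29, and ValR 36 at 41.5 CPM with the next at 0.774. The same 3 libraries stood apart in paralog groups 1 to 3 (2.88, 18.4 and 16.1 CPM), in groups 4 to 5 (6.33, 32.6 and 22.5 CPM) and in groups 6 to 9 (1.78, 6.74 and 2.95 CPM). Of 36 groups of values checked for a distant sample, 12 had one, and chance gives about 1 in 20; the sums of one library are not independent of each other.

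For IleR against Control, the means of males and females moved in opposite directions when Control 29 was kept, and this difference in the sums was not tested. The summed Hox level changed by 12.6 CPM in males and by -1.63 CPM in females, a difference of 14.3 CPM. For groups 4 to 5 the difference was 5.99 CPM (5.03 in males and -0.96 in females), and for groups 6 to 9 it was 0.422 CPM (0.162 and -0.26). The female Control mean of 2.12 CPM rested on Control 29. Without it the Control mean was 0.343 CPM, below the female IleR mean of 0.486 CPM. The IleR mean in turn rested on IleR 41 and was 0.308 CPM without it. The direction in females thus depended on single libraries, and these means give no direction to set beside that of males.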

How the results depend on the processing

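The counts of Hox genes called in males depended on the setting. For IleR (2 genes), DESeq2 gave 10, limma voom 0, an adjusted p of 0.01 gave 0, a fit of the 2 groups alone 8, the hindbrain score as a covariate 0, and leaving out 1 library 0 to 7, the highest without LeuR 21. For LeuR (8 genes) the counts were 0 with limma voom, at 0.01, in the 2 groups alone (where 1 Hox gene was tested) and with the score, and 0 to 13 with 1 library left out, again highest without LeuR 21. For ValR (13 genes) they were 7 at 0.01, 6 with limma voom, 0 with the score, 4 without ValR 7 and ValR 9, and 12 to 16 with 1 library left out. For diet by sex (0 genes), DESeq2 gave 2, 2 and 3 for IleR, LeuR and ValR; for ValR, leaving out 1 library gave 0 to 11, and leaving out female ValR 36, LeuR 45 and Control 29 gave 1. Counts in females and between restricted diets were 0 in every alternative run. DESeq2 gave the female Hoxb4 comparisons no adjusted p. For female LeuR and ValR the fit of 2 groups alone had no Hox gene to test.

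Of 545 alternatives for the 23 gene results called, 422 kept direction and call, 122 kept direction only, and 1 turned: Hoxb2 in IleR had a log2 change of -0.44 with the score as a covariate. In males the score nearly follows diet, so the loss of calls with it is built into that fit; for the other settings the cause was not tested. Low counts limit the precision: 25 of the 38 genes did not pass the filter on low counts in males and 37 in females. No paired analysis was possible because each library has its own number.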
